A study of Mus musculus with 6 samples.

Results

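Glutathione S-transferases are described here through 10 genes, Gsta1, Gsta2, Gsta3, Gsta4, Gstm1, Gstm2, Gstm3, Gstp1, Gstt1 and Gstk1, chosen as the rows of the deposited table that carry these gene names. All 10 were found among the 25102 genes of the table, and all 10 passed the filter for testing, a 6-library mean of at least 1 FPKM, which kept 8528 genes. FPKM counts the sequenced fragments of a gene, corrected for gene length and for the size of the library. The libraries were made from poly(A) RNA of liver from male C57BL/6J mice, aged 2 weeks when the experiment began. In the treated group, called DEN+CCl4, a single intraperitoneal dose of 1 mg/kg diethylnitrosamine was followed about 6 weeks later by carbon tetrachloride at 0.2 mL/kg, with 2 injections a week lasting at most 14 weeks. The control group is described only as control, with no word on whether vehicle was injected. Each group had 3 libraries, and the labels say neither whether treated tissue was tumour or surrounding liver nor which animal a library came from, so the p-values below measure the spread between these libraries, which may be in part technical.

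Glutathione S-transferases join the tripeptide glutathione to electrophilic compounds, so that reactive products of drugs, toxins and lipid peroxidation become soluble and can be exported from the cell. The cytosolic enzymes work as dimers and are sorted by sequence into classes, of which the alpha (Gsta), mu (Gstm), pi (Gstp) and theta (Gstt) classes are represented here, while the kappa enzyme Gstk1 lies in mitochondria and peroxisomes and is unrelated in origin to the cytosolic ones. Hepatocytes hold large amounts of these enzymes, and several of the genes are induced through the transcription factor NRF2, which binds antioxidant response elements in their promoters.

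The libraries of the treated group differed from each other. DEN+CCl4 replicate 3 had 64.2% of its summed FPKM in the 37 mitochondrially encoded genes, against 26.6% to 43.0% in the other 5 libraries, and its median FPKM over the tested genes was 1.19 against 3.43 to 4.46. In that library 83.9% of all tested genes lay below all 3 controls. The Pearson correlation of its log2 values with the controls, across genes, was 0.744 to 0.779, against 0.823 to 0.870 for DEN+CCl4 replicate 2 and 0.948 to 0.962 for DEN+CCl4 replicate 1. Values are therefore given both as deposited and after median-ratio scaling, which divides each library by the median ratio of its genes to their geometric mean over libraries. This scaling moved the median log2 difference of all tested genes from -0.27 to 0.01. Hepatocyte markers were abundant in all 6 libraries, with 7 of 8 listed genes measured and a summed level of 48292 to 76659 FPKM in the control libraries against 13908 to 75002 FPKM in DEN+CCl4. After median-ratio scaling these ranges were 41759 to 60886 and 39045 to 54677.

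None of the 10 genes passed the test between DEN+CCl4 and control. With limma on log2(FPKM + 1) and Benjamini-Hochberg adjustment over all 8528 genes, 0 of 10 had an adjusted p under 0.05 in either direction, where 1.48% of all tested genes did (0.833% higher and 0.645% lower). Unadjusted p-values under 0.05 were found for 1 of 10 higher (Gsta1) and 2 of 10 lower (Gstk1 and Gsta3), against 2.53% and 5.07% of all tested genes. The same 3 genes reached that level after median-ratio scaling, against 5.49% higher and 5.23% lower of all tested genes. The estimate was negative for 9 of 10 genes, and for 8 of 10 after median-ratio scaling, with Gstm3 the gene whose sign turned. The median log2 difference of the 10 genes was -1.18, or -0.73 after scaling, beside the medians of all tested genes given above. With 3 libraries against 3, the exact two-sided permutation test cannot give a p below 0.1. A difference on the log2(FPKM + 1) scale understates the change of genes at low FPKM.

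**Figure D1:**
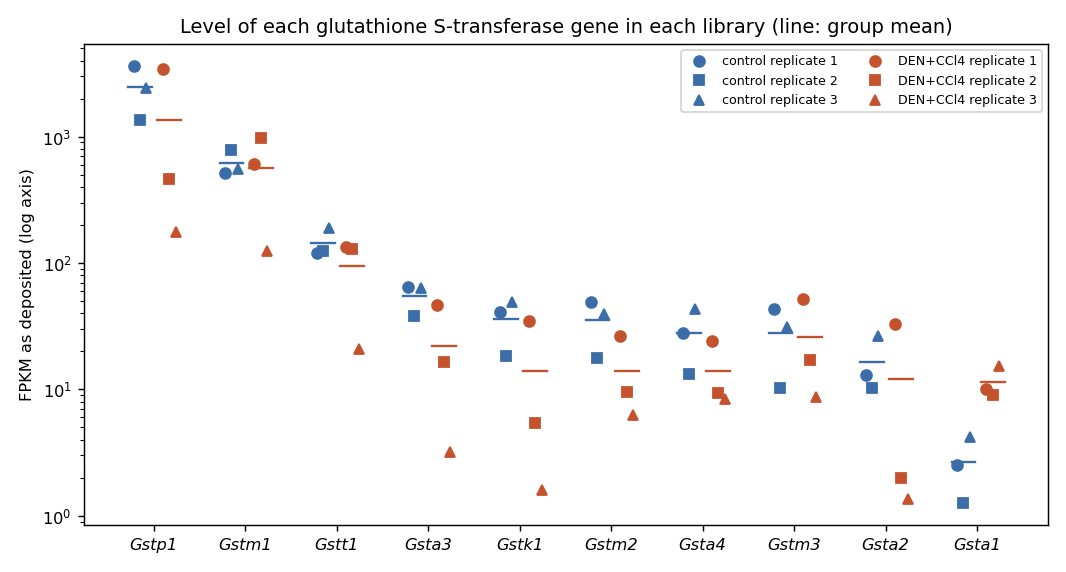
FPKM of the 10 glutathione S-transferase genes on a log axis, 1 point per library, for 3 control and 3 DEN+CCl4 libraries, with a short line at each group mean. Gstp1 reached 3637 FPKM in control replicate 1 and lay at 176 FPKM in DEN+CCl4 replicate 3, while Gsta1 is the gene whose 3 treated points all lie above its 3 control points.

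The transcript level of the family was set by a few genes. In controls the order by mean FPKM was Gstp1, Gstm1, Gstt1, Gsta3, Gstk1, Gstm2, Gsta4, Gstm3, Gsta2 and Gsta1. Neighbours in this order did not overlap over the 3 controls for Gstp1 and Gstm1, Gstm1 and Gstt1, Gstt1 and Gsta3, and Gsta2 and Gsta1. From Gsta3 down to Gsta2 the control ranges of each neighbouring pair overlapped, although Gsta3 was above Gstk1, and Gstm3 above Gsta2, within each of the 6 libraries. The lowest Gstp1 value in controls was 1361 FPKM and the highest Gstm1 value was 789 FPKM. Gstp1 exceeded Gstm1 in 5 of 6 libraries, the exception being DEN+CCl4 replicate 2. Among all tested genes, Gstp1 stood between the 99.1 and 99.6 percentile in every library, Gstm1 between 98.6 and 99.4, and Gstt1 between 95.7 and 97.5, so these 3 genes kept a rank near the top within each treated library.

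Alpha class enzymes are the classic detoxifying glutathione S-transferases of hepatocytes, and also reduce lipid hydroperoxides. Gsta1 and Gsta2 lie on the same chromosome near each other and near Gsta4, at chr9:78230656-78242684 on the plus strand, chr9:78331018-78355788 on the minus strand and chr9:78182774-78209349 on the plus strand, and Gsta3 lies at chr1:21240589-21265661 on the plus strand (GRCm38, GENCODE M21). The coding sequences of Gsta1 and Gsta2 matched at 655 of 672 bases (97.5%), while Gsta1 matched Gsta3 at 73.4% and Gsta4 at 65.5%. The stretch from coding base 548 to base 667, where the pair differ most, is shown because few bases tell apart these 2 genes, whose estimates had opposite signs. Capitals mark the 6 bases that differ, and the sequences come from the GENCODE M21 transcripts.
Gsta1: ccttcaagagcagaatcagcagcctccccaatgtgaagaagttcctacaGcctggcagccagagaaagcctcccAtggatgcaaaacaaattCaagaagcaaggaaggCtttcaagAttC
Gsta2: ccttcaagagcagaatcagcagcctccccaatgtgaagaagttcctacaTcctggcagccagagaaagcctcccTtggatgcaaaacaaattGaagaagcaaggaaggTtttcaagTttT

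Gsta1 lay above all controls in every DEN+CCl4 library. Its values were 2.54, 1.26 and 4.21 FPKM in control replicates 1, 2 and 3, and 10.1, 9.03 and 15.4 FPKM in the DEN+CCl4 replicates, in the same order. The groups did not overlap. The means were 2.67 ± 1.48 FPKM (SD, n = 3) and 11.5 ± 3.43 FPKM (SD, n = 3), and the ratio of the means was 4.32. The log2 difference was 1.82 ± 0.63 (SE) with a limma adjusted p of 0.164, and 2.23 ± 0.67 (SE) after median-ratio scaling with an adjusted p of 0.453. The exact permutation p was 0.1, the smallest this design allows. In 3.01% of all tested genes, and 7.63% after scaling, all 3 treated libraries lay above all 3 controls, and the 1 of 10 seen here is to be read against that background. Its rank among tested genes was at the 39.9, 12.5 and 54.1 percentile in the controls and at 75.3, 71.3 and 94.3 in the treated libraries.

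Reads of Gsta1 cannot be assigned with certainty. Its coding sequence matched that of the neighbouring predicted gene Gm3776 (chr9:78257129-78269166, plus strand) at 670 of 672 bases, and 92.2% of its 31-base words occur in another gene (87.8% in Gm3776 and 55.5% in Gsta2). Gm3776, named after its values were seen, had 2.34, 0.76 and 2.64 FPKM in the control libraries against 7.35, 6.04 and 16.8 FPKM in DEN+CCl4, a log2 difference of 1.87 ± 0.60 (SE) with a limma adjusted p of 0.0997. The pair Gsta1 and Gm3776 summed to 4.88, 2.02 and 6.85 FPKM in the control libraries and to 17.4, 15.1 and 32.2 FPKM in DEN+CCl4, again without overlap. When Gsta2 and the related gene Gm10639 were added, the sums were 18.2, 12.4 and 33.1 FPKM in the control libraries against 50.6, 17.1 and 34.8 FPKM in DEN+CCl4, and the groups overlapped (exact permutation p = 0.4).

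Gsta2, the other classic alpha gene, whose induction by antioxidants led to the discovery of the antioxidant response element in its rat counterpart, had 13.1, 10.2 and 26.2 FPKM in the control libraries against 32.7, 2.00 and 1.36 FPKM in DEN+CCl4. DEN+CCl4 replicate 1 was above every control and the other 2 treated libraries were below every control. The log2 difference was -1.39 ± 0.73 (SE), with a limma adjusted p of 0.707. Without DEN+CCl4 replicate 1 it was -2.61 with a limma adjusted p of 0.0183, so that library decides whether Gsta2 passes. The ratio of Gsta1 to Gsta2 was 0.194, 0.124 and 0.161 in controls and 0.309, 4.52 and 11.4 in DEN+CCl4, without overlap between groups (exact permutation p = 0.1, the smallest possible). Gsta1 alone already separated the groups, so the ratio is not separate evidence. How often ratios of gene pairs separate over all tested genes was not computed. Because 75.6% of the 31-base words of Gsta2 are shared with other genes, mostly with Gm10639 and Gsta1, this ratio depends on how shared reads were divided, on which the sources used here are silent.

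**Figure D2:**
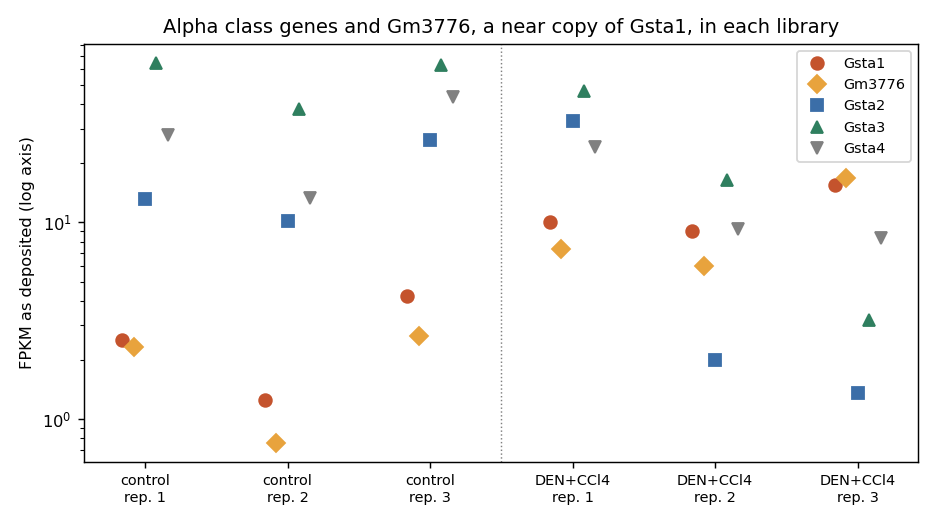
FPKM as deposited, on a log axis, of Gsta1, its near-identical copy Gm3776, Gsta2, Gsta3 and Gsta4, 1 point per gene in each of 3 control (left of the dotted line) and 3 DEN+CCl4 libraries. Gsta1 and Gm3776 lie higher in all 3 treated libraries, while Gsta2 is at 2.00 and 1.36 FPKM and Gsta3 at 16.5 and 3.19 FPKM in the last 2 DEN+CCl4 libraries.

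Gsta3, an alpha enzyme known in the mouse for its activity toward the epoxide of aflatoxin, was the most abundant alpha gene in controls. It had 64.6, 37.8 and 63.1 FPKM in the control libraries against 46.4, 16.5 and 3.19 FPKM in DEN+CCl4. DEN+CCl4 replicate 1 fell within the control range and the other 2 treated libraries below it. The means were 55.2 ± 15.1 and 22.0 ± 22.1 FPKM (SD, n = 3 each). The log2 difference was -1.85 ± 0.90 (SE) with a limma adjusted p of 0.601, and -1.44 ± 0.55 (SE) after scaling with an unadjusted p of 0.031. With both median-ratio scaling and DEN+CCl4 replicate 1 left out, it was -2.01 with a limma adjusted p of 0.0294. As a share of the summed FPKM of the 10 genes, Gsta3 gave 1.43%, 1.58% and 1.84% in controls and 1.05%, 1.01% and 0.873% in DEN+CCl4, so all 3 treated shares were below all control shares. That share also depends on the levels of Gstp1 and Gstm1. Only 1.05% of its 31-base words occur in other genes.

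Gsta4, which conjugates 4-hydroxynonenal, an aldehyde from peroxidised lipids, had 27.8, 13.3 and 43.3 FPKM in the control libraries against 24.3, 9.28 and 8.33 FPKM in DEN+CCl4. Replicates 2 and 3 of the treated group were below all controls. The log2 difference was -0.97 ± 0.83 (SE), limma adjusted p of 0.993, and after scaling -0.51 with DEN+CCl4 replicate 3 inside the control range. None of its 31-base words occur in other genes.

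The 4 promoters below are shown because they belong to genes of opposite or large estimated difference and because 2 of them hold motifs tied to induction of this family. They were taken from RefSeq (GRCm38.p6) as the 250 bases before each annotated start, ended where a GENCODE M21 exon of the gene begins (for Gstp1, 6 bases into its first exon, to keep a motif whole), and are printed in the direction of transcription. Entries matched 9 of the 10 genes, without Gsta4. The motifs searched, on both strands of these 250 bases, were TGACNNNGC, the core of the antioxidant response element, TGACTCA, the site of AP-1 factors, and TTCNNNGAA, the palindrome bound by STAT factors. A TGACTCA followed by GC would match both of the first 2. Capitals mark TGACNNNGC or TGACTCA on either strand. The windows are chr9:78230419-78230655 (plus strand) for Gsta1, chr9:78347169-78347395 (minus strand) for Gsta2, chr1:21240335-21240584 (plus strand) for Gsta3 and chr19:4037980-4038162 (minus strand) for Gstp1.
Gsta1: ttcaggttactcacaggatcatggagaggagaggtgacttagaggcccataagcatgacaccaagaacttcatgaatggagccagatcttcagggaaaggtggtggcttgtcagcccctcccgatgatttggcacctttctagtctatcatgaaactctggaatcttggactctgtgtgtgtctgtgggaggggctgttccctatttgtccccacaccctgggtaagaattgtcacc
Gsta2: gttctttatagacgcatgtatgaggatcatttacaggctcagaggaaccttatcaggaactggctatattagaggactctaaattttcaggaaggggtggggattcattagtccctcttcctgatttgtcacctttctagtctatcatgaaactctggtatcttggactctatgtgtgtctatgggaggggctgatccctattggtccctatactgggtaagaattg
Gsta3: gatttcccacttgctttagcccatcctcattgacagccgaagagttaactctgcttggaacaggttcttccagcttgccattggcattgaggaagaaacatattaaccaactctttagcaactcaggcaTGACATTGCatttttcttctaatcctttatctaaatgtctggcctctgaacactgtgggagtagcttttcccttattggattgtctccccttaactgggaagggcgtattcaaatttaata
Gstp1: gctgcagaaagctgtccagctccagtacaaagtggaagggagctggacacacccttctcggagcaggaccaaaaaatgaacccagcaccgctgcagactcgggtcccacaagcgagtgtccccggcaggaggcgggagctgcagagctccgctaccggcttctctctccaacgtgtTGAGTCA

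TGACNNNGC was found in the Gsta3 window at position -121 from the RefSeq start, on the plus strand, and in no other of the 9 genes, whereas 10.2% of 32851 mouse promoters of the same length hold it. TGACTCA was found in the Gstp1 window at position -74 from the RefSeq start, read on the strand opposite to transcription, with 6 of its bases in the first exon that GENCODE annotates, and 4.46% of all promoters hold it. In the direction of transcription this Gstp1 match reads TGAGTCA and is followed by GC, beyond the printed stretch. It thus differs from TGACNNNGC only in having G for the C. Forms of the antioxidant response element other than TGACNNNGC were not searched. TTCNNNGAA was found in the Gsta1 window at position -162, and 7.02% of all promoters hold it. The Gsta1 and Gsta2 promoters matched at 137 of 165 bases (83.0%) over their best local alignment, and at 182 of 261 aligned positions (69.7%) end to end, less than their coding sequences. A match describes letters in the window and does not show that a factor binds there.

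Mu class genes sit side by side on 1 chromosome, Gstm3 at chr3:107963696-107969283, Gstm2 at chr3:107981702-107986453 and Gstm1 at chr3:108012255-108017973, all on the minus strand (GRCm38). Their coding sequences matched at 76.9% (Gstm1 and Gstm2), 80.0% (Gstm1 and Gstm3) and 84.8% (Gstm2 and Gstm3), and 46.6% of the 31-base words of Gstm1, 37.7% of Gstm3 and 19.5% of Gstm2 occur in another gene. Gstm1, the main mu enzyme of mouse liver, had 517, 789 and 552 FPKM in the control libraries against 606, 969 and 124 FPKM in DEN+CCl4. The treated libraries straddled the controls, with replicate 2 above, replicate 3 below and replicate 1 within their range. The means were 620 ± 148 and 566 ± 424 FPKM (SD, n = 3 each), with a log2 difference of -0.54 ± 1.04 (SE, limma adjusted p of 0.996) and -0.06 after scaling. Without DEN+CCl4 replicate 3 the sign turned, at 0.33.

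Gstm2 had 49.1, 17.8 and 39.8 FPKM in the control libraries against 26.4, 9.48 and 6.27 FPKM in DEN+CCl4. The treated libraries were low in replicates 2 and 3 and within the control range in replicate 1, with a log2 difference of -1.40 ± 0.84 (SE, limma adjusted p of 0.828). Gstm3, which antioxidants induce strongly in mouse liver through NRF2, had 43.0, 10.2 and 31.1 FPKM in the control libraries against 52.2, 16.9 and 8.72 FPKM in DEN+CCl4. Its groups overlapped, and its log2 difference was -0.26 ± 0.86 (SE, limma adjusted p of 0.996) as deposited and 0.19 after scaling. As a share of the 10 genes, Gstm3 gave 0.952%, 0.429% and 0.904% in controls and 1.19%, 1.04% and 2.39% in DEN+CCl4, all treated shares above all control shares (exact permutation p = 0.1). Gstp1 was 57.1% to 80.5% of that sum in controls and 78.0%, 28.5% and 48.1% in DEN+CCl4. The share of Gstm3 therefore also depends on the level of Gstp1.

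Gstp1, the pi class enzyme, whose rat counterpart is the classic marker of preneoplastic liver foci, is by contrast abundant in normal male mouse liver. It lies at chr19:4035407-4037985 on the minus strand. Its near-copy Gstp2 matched it at 621 of 633 coding bases (98.1%) and the processed pseudogene Gstp-ps (chr1:192073820-192074450, minus strand) at 616 of 633 (97.3%). The first 120 coding bases of Gstp1 and Gstp2 are shown because they hold 6 of the 12 bases that separate the genes, in capitals.
Gstp1: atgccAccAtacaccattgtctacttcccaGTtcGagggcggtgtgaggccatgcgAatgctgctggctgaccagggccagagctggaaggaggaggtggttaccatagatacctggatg
Gstp2: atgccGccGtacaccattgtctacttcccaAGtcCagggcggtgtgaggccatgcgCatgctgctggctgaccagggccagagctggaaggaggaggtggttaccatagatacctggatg

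Gstp1 had 3637, 1361 and 2439 FPKM in the control libraries against 3430, 465 and 176 FPKM in DEN+CCl4. DEN+CCl4 replicate 1 lay near the highest control, and replicates 2 and 3 lay below every control. The means were 2479 ± 1139 and 1357 ± 1801 FPKM (SD, n = 3 each). The log2 difference was -1.81 ± 0.99 (SE) with a limma adjusted p of 0.728, and -1.33 ± 0.90 (SE) after scaling (exact permutation p = 0.3 as deposited). With DEN+CCl4 replicate 1 left out the difference was -3.0 (limma adjusted p of 0.0569), and with replicate 3 left out it was -0.86. No treated library exceeded the highest control.

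Of the 31-base words of Gstp1, 67.5% occur in other genes, so its level is uncertain. Gstp-ps, named after its values were seen, was listed at 2835, 1465 and 2301 FPKM in the control libraries, against 3076, 568 and 184 FPKM in DEN+CCl4, close to Gstp1 in each library, with a ratio of Gstp1 to Gstp-ps between 0.818 and 1.28. Gstp2 had 250, 158 and 216 FPKM in the control libraries against 350, 134 and 81.9 FPKM in DEN+CCl4, a log2 difference of -0.38 (limma adjusted p of 0.996) and 0.10 after scaling. The ratio of Gstp1 to Gstp2 was 14.5, 8.60 and 11.3 in controls and 9.80, 3.47 and 2.15 in DEN+CCl4, and the groups overlapped because DEN+CCl4 replicate 1 was above control replicate 2. Gstp1, Gstp2 and Gstp-ps summed to 6722, 2984 and 4956 FPKM in the control libraries and to 6857, 1166 and 441 FPKM in DEN+CCl4.

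Gstt1, a theta class enzyme known for its activity toward dihalomethanes and other small halogenated compounds, lies at chr10:75783813-75798584 on the minus strand. It had 120, 124 and 190 FPKM in the control libraries against 135, 128 and 21.1 FPKM in DEN+CCl4. Replicates 1 and 2 of the treated group were within the control range and replicate 3 was far below it. The log2 difference was -0.96 ± 1.03 (SE, limma adjusted p of 0.996), and -0.50 after scaling.

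Gstk1, the kappa enzyme, lies at chr6:42245935-42250447 on the plus strand. It had 41.2, 18.2 and 49.1 FPKM in the control libraries against 35.0, 5.43 and 1.60 FPKM in DEN+CCl4. The first treated library was within the control range, and the other 2 were below all controls. The means were 36.2 ± 16.0 and 14.0 ± 18.3 FPKM (SD, n = 3 each). Its log2 difference of -2.03 ± 0.82 (SE, limma adjusted p of 0.336) was the most negative of the 10, and it was -1.66 ± 0.71 (SE) after scaling. Without DEN+CCl4 replicate 1 it was -3.07 with a limma adjusted p of 0.0117, so the call on Gstk1 rests on that library. Within libraries its rank went from the 86.0 to 92.0 percentile in controls and 90.4 in DEN+CCl4 replicate 1 to 56.5 and 60.2 in replicates 2 and 3.

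**Figure D3:**
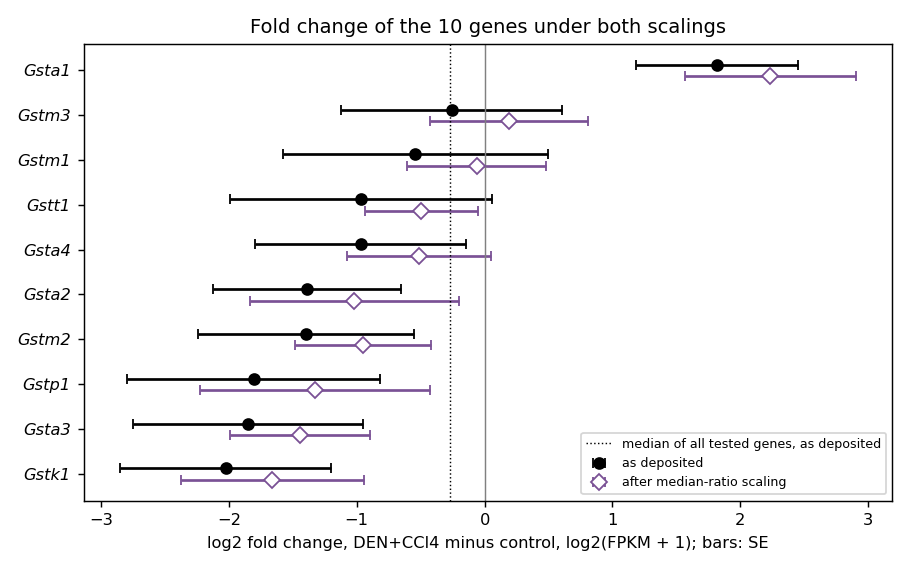
Log2 difference, DEN+CCl4 minus control on log2(FPKM + 1), with its SE from limma for each of the 10 genes, as deposited (filled) and after median-ratio scaling (open), with a dotted line at -0.27, the median of all tested genes as deposited. Gsta1 stands at 1.82 and 2.23, Gstk1 at -2.03 and -1.66, and Gstm3 changes sign between the 2 scalings.

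The 3 treated libraries were not alike. In DEN+CCl4 replicate 1, 0 of 10 genes lay below all controls, where 11.9% of all tested genes did, and 3 lay above them (Gsta1, Gsta2 and Gstm3) against 25.8%. In DEN+CCl4 replicate 2, 6 of 10 lay below all controls (Gsta2, Gsta3, Gsta4, Gstm2, Gstp1 and Gstk1) against 22.7% of all tested genes, and after scaling 7 of 10 against 31.4%. As deposited, 2 lay above all controls there (Gsta1 and Gstm1) against 45.1%. In DEN+CCl4 replicate 3, all but Gsta1 lay below all controls, but so did 83.9% of tested genes, and after scaling 6 of 10 did (Gsta2, Gsta3, Gstm1, Gstp1, Gstt1 and Gstk1) against 37.1%. Gsta1 alone of the 10 lay above all controls in that library, where 5.66% of all tested genes did. Over all 3 treated libraries together, 0 of 10 lay below all controls, as deposited or scaled, where 5.35% and 6.52% of all tested genes did.

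**Figure D4:**
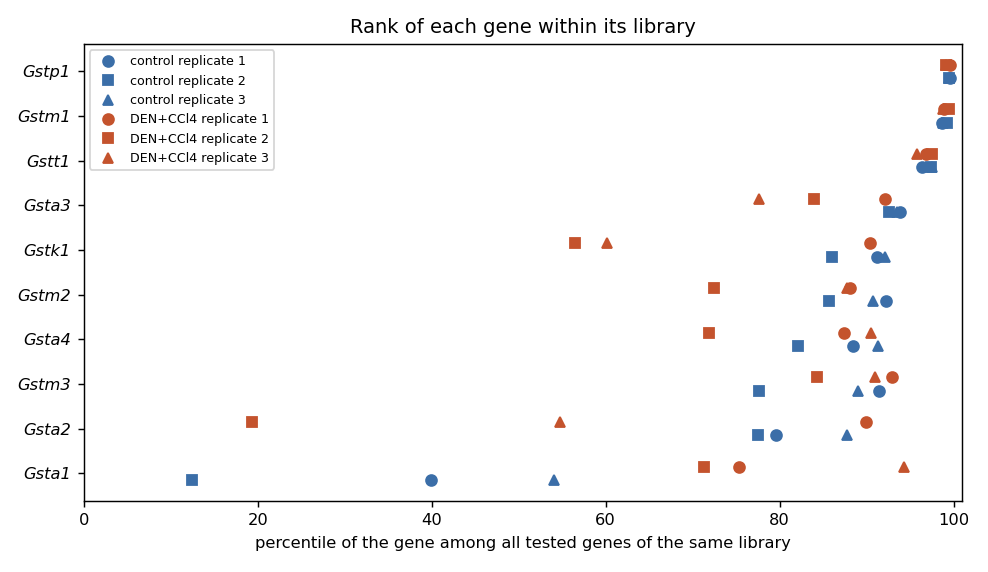
Percentile of each of the 10 genes among the 8528 tested genes within each library, which does not depend on scaling. Gstp1, Gstm1 and Gstt1 stay above 95 in all 6 libraries, Gsta1 is higher in the 3 DEN+CCl4 libraries, and Gsta2 and Gstk1 are lower in DEN+CCl4 replicates 2 and 3.

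The summed FPKM of the 10 genes was 4515, 2382 and 3438 in controls and 4398, 1631 and 365 in DEN+CCl4. Means were 3445 ± 1066 and 2132 ± 2062 FPKM (SD, n = 3 each), and the exact permutation p was 0.3. Of all FPKM outside mitochondrially encoded genes, the 10 genes made up 0.885%, 0.576% and 0.757% in controls and 1.01%, 0.421% and 0.0960% in DEN+CCl4. The difference between the groups' mean log2 sums was -1.27, and -0.79 after median-ratio scaling. It rested on single treated libraries, at -0.31 with DEN+CCl4 replicate 3 left out and -2.11 with replicate 1 left out.

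Gstp1 and Gstm1 together gave 92.0%, 90.2% and 87.0% of the sum in controls and 91.8%, 87.9% and 81.9% in DEN+CCl4. Gstp1 alone gave 80.5%, 57.1% and 70.9% in controls and 78.0%, 28.5% and 48.1% in DEN+CCl4, and Gstm1 gave 11.5%, 33.1% and 16.1% in controls and 13.8%, 59.4% and 33.8% in DEN+CCl4. For both genes the shares of the 2 groups overlapped. The share of Gsta1 was 0.0563%, 0.0529% and 0.122% in controls and 0.230%, 0.554% and 4.23% in DEN+CCl4, with all treated shares above all control shares (exact permutation p = 0.1). Shares of Gsta3 and Gstm3 separated as given above. Those of Gsta2, Gsta4, Gstm2, Gstt1 and Gstk1 overlapped, with exact permutation p-values from 0.2 to 0.9. Each of these shares also depends on the levels of Gstp1 and Gstm1.

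**Figure D5:**
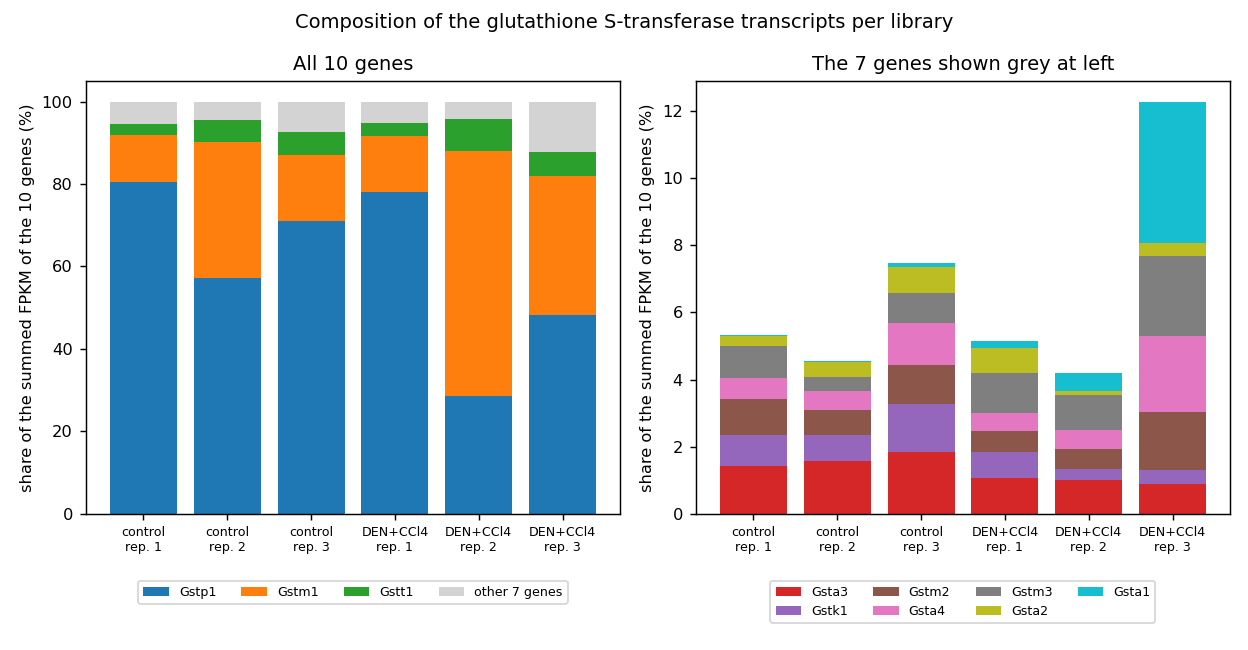
Share of each gene in the summed FPKM of the 10 genes for each library, with all genes at left and the 7 less abundant genes enlarged at right. Gstp1 gives 28.5% and Gstm1 59.4% in DEN+CCl4 replicate 2, and Gsta1 reaches 4.23% in DEN+CCl4 replicate 3.

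By Pearson correlation of scaled log2 values over the 6 libraries, the genes most like Gstp1 were Kynu (r = 0.993), Selenow (0.991) and Btd (0.989), and those most like Gstk1 were Uqcrb (0.998), Cyb5a (0.998) and Phb (0.995). The 6 libraries share the split between DEN+CCl4 replicates 2 and 3 and the rest, so these values describe that split and are given without a p. Cyb5a, a cytochrome b5 of the endoplasmic reticulum, for example had 217, 126 and 274 FPKM in the control libraries against 214, 59.3 and 18.6 FPKM in DEN+CCl4.

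The remaining genes around glutathione were taken from 7 lists with 105 genes, of which 102 were in the table and 85 were tested. With limma, 0 of 85 passed in either direction, while an unadjusted p under 0.05 was reached by 4 with a higher and 17 with a lower estimate, beside 2.53% and 5.07% of all tested genes. The 4 higher include Cbr3 and G6pdx, which reached the filter only through the treated libraries, so no conclusion is drawn from that count. Among the other glutathione transferase genes, an unadjusted p under 0.05 was reached by 0 higher and 5 lower of 12 tested, with a median log2 difference of -0.88 (-0.47 scaled). Mgst1, the microsomal enzyme of the endoplasmic reticulum and outer mitochondrial membrane, had 568, 261 and 646 FPKM in the control libraries against 387, 73.0 and 16.2 FPKM in DEN+CCl4 (log2 difference -2.54 ± 1.06 SE, limma adjusted p of 0.374). Chosen after their values were seen, Gstt3 had 7.12, 9.35 and 12.5 FPKM in the control libraries against 5.50, 1.74 and 0.31 FPKM in DEN+CCl4, and Gstm6 had 23.4, 21.0 and 35.0 FPKM in the control libraries against 11.1, 12.8 and 2.28 FPKM in DEN+CCl4. In both genes all treated libraries lay below all controls, with limma adjusted p-values of 0.106 and 0.521. Of the 12 other transferase genes tested, 4 lay below all controls and 0 above them as deposited, beside 5.35% and 3.01% of all tested genes. Gstt4, Gsto2, Gstcd, Hpgds and Mgst2 were at or below 0.18 FPKM in every library and were not tested.

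Of 8 tested genes of glutathione synthesis and precursor supply, 0 higher and 1 lower had an unadjusted p under 0.05. Of all tested genes, 2.53% and 5.07% did. The median of the 8 was -0.61 (-0.20 scaled). Cdo1, which diverts cysteine to taurine, had a log2 difference of -1.53 (limma adjusted p of 0.934), and Cbs, the first enzyme from homocysteine toward cysteine, had -1.35 (limma adjusted p of 0.921). Genes that break glutathione and its conjugates down toward mercapturates gave 0 higher and 4 lower of 11, beside those same shares. Their median was -1.18 (-0.91 scaled). Nat8f2 and Nat8f1, of the family of cysteine conjugate acetyltransferases, had -2.53 and -2.23 with limma adjusted p-values of 0.262 and 0.373. Ggt6, a gamma-glutamyltransferase family gene named after its values were seen, had 5.75, 4.46 and 6.17 FPKM in the control libraries against 3.10, 0.68 and 0.11 FPKM in DEN+CCl4, with a limma adjusted p of 0.0675.

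Among glutathione peroxidases, reductase and glutaredoxins, 1 higher and 3 lower of 11 had an unadjusted p under 0.05. Of all tested genes, 2.53% and 5.07% did. The median of the 11 was -0.35 (-0.06 scaled). Gpx1, the cytosolic peroxidase, had 149, 105 and 697 FPKM in the control libraries against 96.5, 14.6 and 19.5 FPKM in DEN+CCl4 (log2 difference -2.82 ± 1.02 SE, limma adjusted p of 0.196). Gpx3, the secreted peroxidase of plasma, was chosen after its values were seen and had 7.18, 7.55 and 6.41 FPKM in the control libraries against 25.0, 42.1 and 39.7 FPKM in DEN+CCl4 (2.15 ± 0.81 SE, limma adjusted p of 0.234). The groups of Gpx1 and of Gpx3 did not overlap. As deposited, 1 of the 11 lay below and 1 above all controls, beside 5.35% and 3.01% of all tested genes. Gpx4, which reduces lipid hydroperoxides in membranes, had -0.82 (limma adjusted p of 0.996). Of 6 conjugate exporters tested, 0 were higher or lower at that level, with a median of -0.81 (-0.49 scaled), -1.24 for Abcc6 and -0.72 for Abcc2, the canalicular pump for glutathione conjugates. After scaling, 1 exporter was higher and 1 lower at that level, beside 5.49% and 5.23% of all tested genes. As deposited, 1 of the 6 lay below all controls and 0 above them, beside 5.35% and 3.01%.

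Regulators of these genes gave 0 higher and 3 lower of 19 tested at an unadjusted p under 0.05. Of all tested genes, 2.53% and 5.07% did. After scaling, 1 regulator was higher and 3 lower, beside 5.49% and 5.23% of all tested genes. The median of the 19 was -0.57 (-0.20 scaled). Nr1i3, the nuclear receptor CAR that drives induction of drug-metabolising enzymes, had 118, 277 and 196 FPKM in the control libraries against 95.0, 28.8 and 4.20 FPKM in DEN+CCl4. All treated libraries lay below all controls, with a log2 difference of -2.92 ± 1.00 (SE) and a limma adjusted p of 0.149. Of the 19 regulators, 3 lay below all controls and 1 above them as deposited, beside 5.35% and 3.01% of all tested genes. Hnf4a, a master regulator of hepatocyte genes, had -0.23 as deposited and 0.23 after scaling (limma adjusted p of 0.996 as deposited). Nfe2l2, which encodes NRF2, had -0.57 (-0.20 scaled) and Keap1, its inhibitor, -0.17 (0.21 scaled), each with a limma adjusted p of 0.996 as deposited.

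Other targets of NRF2 gave 3 higher and 1 lower of 18 tested at an unadjusted p under 0.05. Of all tested genes, 2.53% and 5.07% did. The median of the 18 was -0.29 (0.16 scaled). The estimate was negative for 10 of the 18, and for 8 after scaling, beside 6341 and 4146 of all 8528 tested genes. Those of the 18 that were named after their values were seen all had positive estimates, so they do not represent the list. Chosen after their values were seen, Osgin1 had 4.87, 19.0 and 14.4 FPKM in the control libraries against 22.0, 87.3 and 59.0 FPKM in DEN+CCl4, and Cbr3, a carbonyl reductase, had 0.30, 0.11 and 0.18 FPKM in the control libraries against 0.80, 2.01 and 3.56 FPKM in DEN+CCl4. Their groups did not overlap, and their limma adjusted p-values were 0.422 and 0.0531. G6pdx, the first enzyme of the pentose phosphate pathway, was likewise above all controls in each treated library (0.92, limma adjusted p of 0.640). Cbr3 averaged 0.197 FPKM in controls against 2.12 FPKM in DEN+CCl4, and G6pdx 0.96 against 3.13 FPKM. Both reached the filter of 1 FPKM only through the treated libraries, so no conclusion is drawn from their separation or p-values. Of the 18, 3 lay above and 1 below all controls as deposited, beside 3.01% and 5.35% of all tested genes. The 3 above were Osgin1, Cbr3 and G6pdx, as were the 3 higher at an unadjusted p under 0.05. With Cbr3 and G6pdx among them, no conclusion is drawn from either count. Nqo1, the quinone reductase most used as a readout of NRF2, had 2.02, 1.68 and 2.88 FPKM in the control libraries against 2.23, 4.20 and 4.17 FPKM in DEN+CCl4, and its groups overlapped (0.49, limma adjusted p of 0.996). Srxn1 had 1.16 (limma adjusted p of 0.817), and the ferritin genes Ftl1 and Fth1 had -0.78 and -0.39.

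Of the summed markers of other cells and of liver zones, those of pericentral hepatocytes, of stellate cells and fibroblasts, and of lymphocytes and neutrophils did not overlap between the groups. The 12 pericentral hepatocyte markers summed to 2957, 1399 and 3470 FPKM in the control libraries and to 1369, 209 and 15.4 FPKM in DEN+CCl4, and 4 of the 11 tested passed as lower with limma (Oat, Cyp2c37, Cyp2e1 and Cyp1a2), beside 0.645% of all tested genes. After median-ratio scaling none of the 4 passed, with limma adjusted p-values of 0.435 for Oat and Cyp2c37 and 0.453 for Cyp2e1 and Cyp1a2. In that fit 9 of the 11 were lower at an unadjusted p under 0.05, beside 5.23% of all tested genes. Periportal markers summed to 2302 to 2658 FPKM in the control libraries against 187 to 2952 FPKM in DEN+CCl4. The 10 cholangiocyte markers summed to 17.2 to 23.6 FPKM in the control libraries against 22.4 to 47.2 FPKM in DEN+CCl4, with Cftr below 0.1 FPKM in all libraries. The 10 stellate cell and fibroblast markers summed to 9.42 to 13.2 and 17.4 to 40.5 FPKM, and the 9 measured lymphocyte and neutrophil markers to 6.15 to 8.21 and 12.8 to 25.1 FPKM. The 8 endothelial markers (11.3 to 20.4 and 8.33 to 23.8 FPKM), the 10 Kupffer cell and macrophage markers (42.1 to 117 and 34.6 to 68.9 FPKM) and the 5 red blood cell markers (236 to 639 and 142 to 2649 FPKM) overlapped. The part of these markers, and of the mitochondrial share, in the values of the 10 genes was not tested. In bulk tissue, fewer cells of a type and less RNA per cell cannot be told apart.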

How the data were processed

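Liver poly(A) RNA libraries, 3 control and 3 DEN+CCl4, were grouped by the labels. The table holds FPKM computed by the authors, per the file headers. HISAT, StringTie and GRCm38 are named in the submitters' processing notes, with no version, annotation release or strand setting, none of which the sources used here give. Depth is unknown: a search for steps worth 1 read found at best 26.1% to 29.3% of low values on a common step (tolerance 0.1 of a step), where chance gives 20%. Gene positions came from GENCODE M21, in which 25051 of 25102 identifiers were found.

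Genes averaging at least 1 FPKM were tested on log2(FPKM + 1) with limma 3.58.1 in R 4.3.3 (empirical Bayes with trend, two-sided, no covariates, Benjamini-Hochberg over 8528 genes, threshold 0.05). The fit was also run on simulated libraries with the spread of the controls and no outlying library. The DEN+CCl4 group was not like that, so the simulation does not show how the fit performs on these data. Single values had an exact permutation test. Other steps used Python 3.11.15, numpy 2.4.6 and pandas 2.3.3. Words of 31 bases from GENCODE transcripts were counted as shared when they occur in another gene.

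The members, lists and tests were chosen with earlier results of these data known. All 10 members are named. From each other list the rule named up to 4 genes that passed the test, adding the 2 with the highest mean if fewer than 2 did. For the member with the highest control mean and the one with the largest difference it named the 3 most correlated genes that averaged 5 FPKM or more. Genes named after their values were seen are Gm3776, Gm10639, Gstp-ps, Gstt3, Gstm6, Gpx3, Ggt6, Osgin1, Cbr3, Srxn1, Nqo1, G6pdx, Nfe2l2, Keap1 and the untested transferases. Alternatives were other pseudocounts, filters and scalings, TPM, mitochondrial genes left out, no trend, array weights, a replicate block and each library left out, which for the summed level was added after seeing the data.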

Additional observations from a re-analysis of the deposited data

How the results depend on the processing

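The count of 0 of 10 genes past the threshold, higher or lower, held under other pseudocounts, no filter or one at 5 FPKM, TPM, median-ratio scaling, mitochondrial genes left out, no trend and the replicate block. Array weights gave 1 higher (Gsta1, 1.21, limma adjusted p of 0.0242), where 287 of all 8528 tested genes were higher. Those weights were 11.2 for control replicate 3 and 0.0621 for DEN+CCl4 replicate 3, and their estimation did not fully converge. With 1 library left out, with or without median-ratio scaling, 0 to 3 genes were lower, and the counts above 0 came without DEN+CCl4 replicate 1, at 2 as deposited and 3 scaled. Of all 8528 tested genes, 270 were lower in that fit as deposited and 362 scaled. In the 7 lists array weights gave 3 higher and 5 lower of 85 genes, where 287 and 134 of all 8528 were. Leaving out a library gave 0 to 6 higher and 0 to 11 lower in the lists. Both maxima were reached with scaling and without DEN+CCl4 replicate 1, where 294 of all 8528 genes were higher and 362 lower. Cbr3 was among the 3 higher with array weights and G6pdx among the 6, and both reached the filter only through the treated libraries. Signs turned after median-ratio scaling for Gstm3 (0.19), Gstp2 (0.097), Hnf4a (0.23), Fth1 (0.091) and Keap1 (0.21). The turns listed next do not cover Nfe2l2 and Keap1. Array weights turned Gsta2 (0.055), Gstm1 (0.16), Gstm3 (0.55), Gstp1 (0.10), Gstp2 (0.52), Nat8f1 (0.069), Hnf4a (0.24), Ftl1 (0.74), Nqo1 (-0.12) and Gstp-ps (0.10). Leaving out 1 library turned Gstm1 (0.33), Gstm3 (0.30), Gstp2 (0.082), Abcc2 (0.13) and Hnf4a (0.52) without DEN+CCl4 replicate 3, and Gstm3 (0.15) without control replicate 1. With scaling as well, the sign turned for Gstm1 (0.15), Hnf4a (0.38) and Ftl1 (0.023) without control replicate 2, for Gstm1 (0.17), Gstm3 (0.15) and Hnf4a (0.36) without DEN+CCl4 replicate 3, for Gstm3 (0.60), Gstp2 (0.25), Hnf4a (0.016) and Fth1 (0.46) without control replicate 1, for Gstm3 (0.33), Gstp2 (0.093), Hnf4a (0.31) and Fth1 (0.24) without control replicate 3, for Gstm3 (0.63), Gstp2 (0.55), Hnf4a (0.13) and Fth1 (0.49) without DEN+CCl4 replicate 2, for Hnf4a (0.20) and Fth1 (0.15) without DEN+CCl4 replicate 1. The full leave-one-out ranges as deposited were Gstm1 -1.15 to 0.33, Gstm3 -0.93 to 0.30, Gstp2 -0.96 to 0.082, Abcc2 -1.21 to 0.13 and Hnf4a -0.67 to 0.52. The causes were not tested. The log2 of the summed FPKM of the 10 genes differed between groups by -2.11 to -0.31 with 1 library left out, -1.44 with TPM, -1.08 without mitochondrial genes and -0.79 after median-ratio scaling, against -1.27. Gsta1 kept a positive estimate under all 22 alternatives, 1.21 to 2.68, with limma adjusted p-values from 0.0242 to 0.984. Since its groups did not overlap, other pseudocounts, filters or weights, or leaving out 1 library as deposited, could not turn that sign. The agreement of those settings therefore adds nothing to the separation already given.

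Whether libraries of the same number were paired is not stated in the labels. The correlations of their deviations from the group means were 0.0271, 0.493 and -0.0704 for replicates 1, 2 and 3. Differently numbered pairs gave -0.437 to 0.261, so the replicate 2 pair was the highest and the other same-numbered pairs lay within that range. With the replicate number as a block, 62 genes were higher and 32 lower over all tested genes, against 71 and 55 without it, and 0 of the 10 genes passed. Calls over all genes varied widely. They were 0 in both directions after median-ratio scaling, with no filter, with no trend, and without DEN+CCl4 replicate 3. Scaling together with leaving out DEN+CCl4 replicate 1 gave 294 higher and 362 lower. Array weights gave 287 higher and 134 lower. Leaving out the first treated library gave 109 higher and 270 lower, and the second 38 and 15. Leaving out 1 control gave 13, 8 or 10 higher and 10, 6 or 9 lower. TPM gave 31 and 27, and the 5 FPKM filter 14 and 53. A pseudocount of 0.1, or mitochondrial genes removed, gave 6 and 3, and a pseudocount of 0.01 gave 4 and 0. Depth is unknown, so no counting error could be given for any level.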
